A study of Mus musculus with 12 samples.

Results

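The genes described here are 10 markers of Kupffer cells and macrophages, *Clec4f*, *Cd5l*, *Marco*, *Adgre1*, *Vsig4*, *Timd4*, *C1qa*, *C1qb*, *C1qc* and *Csf1r*, out of 16346 genes in a table of mouse liver RNA-seq values. They were taken by name, after Ensembl identifiers had been matched to gene symbols, and all 10 passed the filter on low values. RNA came from whole liver of C57BL6J mice aged 12 weeks, which either carried floxed *Med13* alone (control, Med13fl/fl) or were liver-specific knockouts (MED13-LKO). In MED13-LKO mice, Cre under the albumin promoter recombines the floxed gene in hepatocytes, so the macrophages of the liver are not the cells in which the deletion is made. Both genotypes were examined after an overnight fast of 16 h, and after 4 h of refeeding on normal chow with drinking water that held 30% sucrose or 30% fructose. Each of the 6 groups held 2 mice, and the replicate numbers 1 and 2 below are those of the sample labels.

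Kupffer cells are the resident macrophages of the liver. They sit inside the sinusoids, where they take up particles, bacteria and senescent red cells from the blood. Their identity depends on signals from neighbouring hepatocytes, endothelial cells and stellate cells, and on CSF1 receptor signaling, with PU.1, LXRα and ID3 acting in the nucleus. Of the genes examined, CLEC4F is a lectin found in the liver on Kupffer cells, VSIG4 is a complement receptor, TIMD4 binds phosphatidylserine on dying cells, MARCO and the secreted protein CD5L belong to the scavenger receptor cysteine-rich family, ADGRE1 is the F4/80 antigen, and the C1Q chains start the classical complement pathway.

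The values are normalized counts per gene, in which the differences in depth between libraries have already been divided out. Estimated reads on genes ranged from 16120000 to 24230000 per library. Hepatocyte genes were abundant in every library, and the 12 on the hepatocyte list summed to between 2160011 and 3563006 normalized counts. The RNA of *Med13* itself showed no decrease under the MED13-LKO label (log2 fold change 0.22, standard error (SE) 0.115, adjusted p = 0.201 from limma), so the genotypes below are those of the labels. The library of control fructose mouse 2 stood apart from the other refed mice in the gluconeogenic gene *Pck1*, at 48079 normalized counts against 7416 in control fructose mouse 1. Differences of the 10 genes that use it are also given without it, as a range over the genes or for single genes. Limma was run on the log2 of the normalized count plus 1 for 12366 genes, and a gene was called when its adjusted p-value was under 0.05. Because only 2 mice stood in each group, the spread was estimated over all 12 libraries.

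All 10 genes were detected in every library. Divided by the length of the longest annotated transcript, *Cd5l* had the highest mean level, 769.8 normalized counts per kilobase over the 12 libraries. It was followed by *Clec4f* at 591.9, the C1q genes between 472.7 and 515.4, and *Vsig4* at 317.8. The lowest levels per kilobase were those of *Csf1r* (161.8), *Adgre1* (113.5), *Marco* (90.6) and *Timd4* (52.51). The 31-base subsequences of 9 of the genes occurred in no other annotated gene. Of those of *Csf1r*, 14.9% occurred in other genes, and *Hmgxb3* shared the most. A part of the *Csf1r* value could therefore come from reads of other genes.

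**Figure D1:**
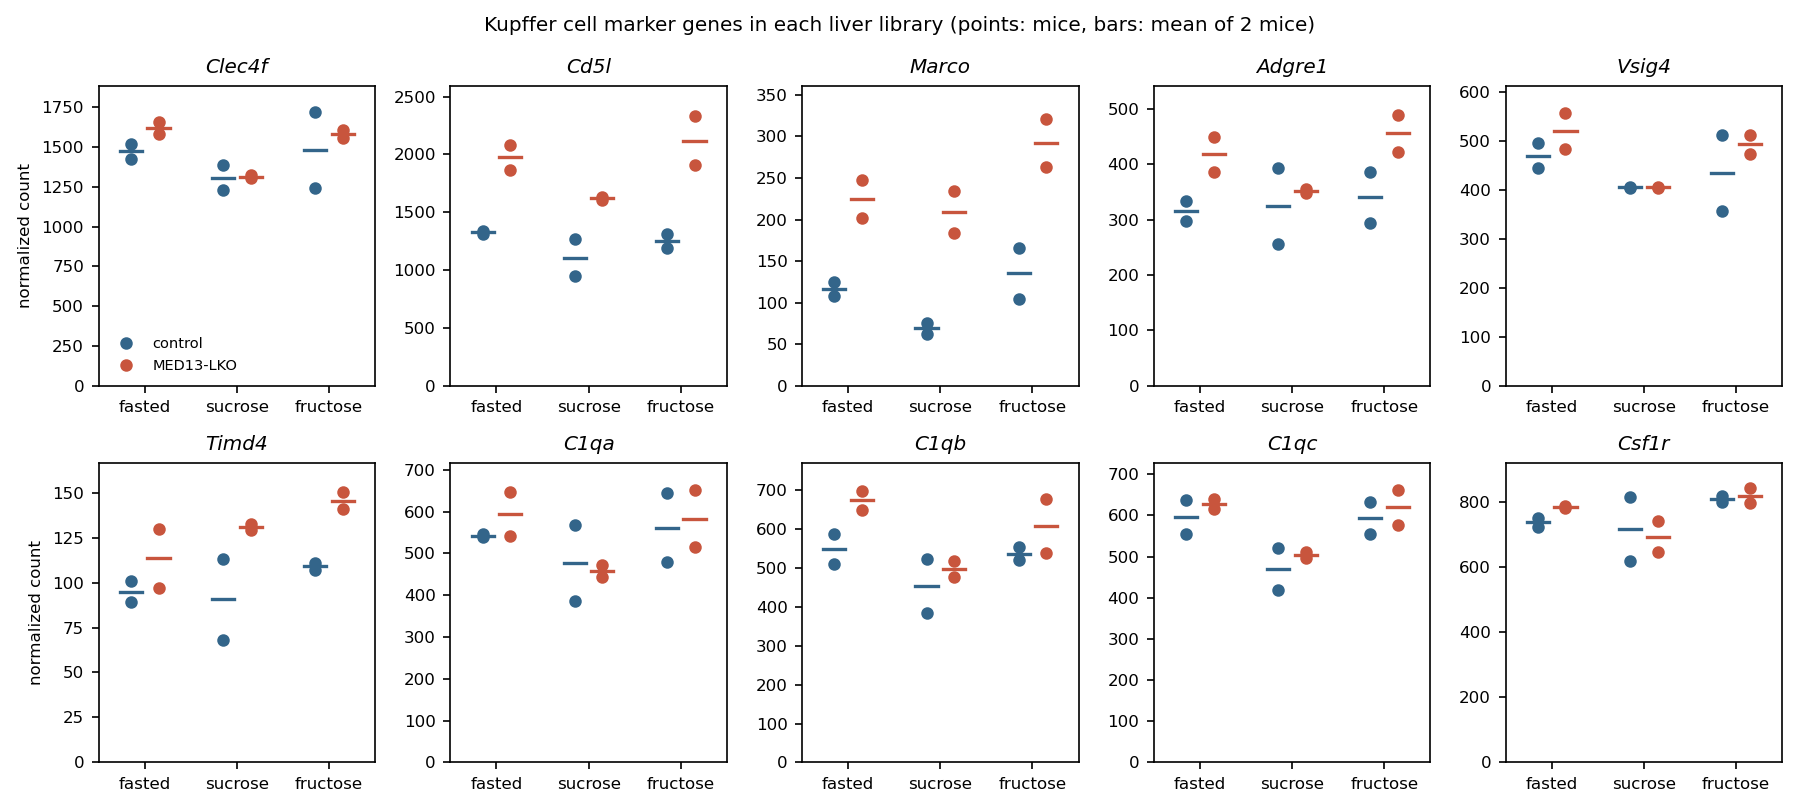
Normalized counts (vertical axes, starting at 0) of the 10 marker genes in each library by diet, with control mice in blue, MED13-LKO mice in red, and a bar at the mean of 2 mice. Every MED13-LKO library lies above every control library for Cd5l (1609 to 2330 against 947 to 1341) and Marco (184 to 321 against 63 to 166), while the genotypes overlap for the other 8 genes.

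*Cd5l* and *Marco* were higher in the MED13-LKO livers in the fasted state and with both sugars, and the other 8 markers were not called. Averaged over the 3 diets, *Cd5l* was 1.55-fold and *Marco* 2.32-fold the control level. *Clec4f*, which in mouse liver marks Kupffer cells, differed by 0.09 on the log2 scale. Thus 2 of 10 markers were called, both higher, where 25.3% of all genes tested were called and 12.1% were called higher. The median log2 fold change of the 10 genes was 0.16, against 0.01 for all genes tested.

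*Cd5l* (ENSMUSG00000015854) lies on the plus strand of chromosome 3 of GRCm38 from 87357881 to 87371073, and its protein, also named AIM, is secreted by macrophages into the blood. The fasted control mice had 1313 and 1341 normalized counts, the sucrose control mice 1270 and 947.4, and the fructose control mice 1314 and 1193. The MED13-LKO mice of the same diets had 1865 and 2083, 1609 and 1636, and 1905 and 2330. The lowest MED13-LKO library therefore stood above the highest control library. The means over the diets were 1230 ± 148 (SD, n = 6) in control and 1905 ± 273 (SD, n = 6) in MED13-LKO livers, a log2 fold change of 0.63 (SE 0.081, 95% confidence interval 0.45 to 0.81, adjusted p = 0.000481 from limma).

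*Marco* (ENSMUSG00000026390) lies on the minus strand of chromosome 1 from 120474538 to 120505024 and encodes a scavenger receptor that binds bacteria and particles. The fasted control mice had 107.6 and 125.3 normalized counts, the sucrose control mice 75.1 and 63.0, and the fructose control mice 104.6 and 166.4. The MED13-LKO mice of the same diets had 201.4 and 247.0, 234.2 and 184.2, and 263.0 and 321.0. The control mouse with the highest value was control fructose mouse 2, and it too lay below every MED13-LKO mouse. The means were 107.0 ± 37 (SD, n = 6) and 241.8 ± 48.5 (SD, n = 6), and the log2 fold change was 1.22 (SE 0.138, 95% confidence interval 0.91 to 1.52, adjusted p = 0.000212 from limma). Among all genes tested, 3.92% had every MED13-LKO library above every control library, as these 2 markers did.

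The calls of *Cd5l* and *Marco* averaged over diets were kept in all 12 fits that left out a mouse, with log2 fold changes of 0.56 to 0.70 and 1.11 to 1.33. Without control fructose mouse 2, the log2 fold changes were 0.61 and 1.33 (adjusted p = 0.00114 and 8.28e-05 from limma). MED13-LKO libraries had smaller sums of normalized counts than control libraries (17310000 to 18740000 against 21060000 to 24150000). When all libraries were rescaled to equal sums, the median of all genes rose to 0.32 and the calls over all genes went from 1493 higher and 1634 lower to 7109 higher and 405 lower. *Cd5l* and *Marco* were then at 0.94 and 1.53, and all 10 markers were called higher, at a scaling that moved most genes the same way. In RNA from whole liver, a change in the number of cells of a type and a change in RNA per cell cannot be told apart.

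Upstream sequence is shown for the 2 called genes and for *Clec4f* as the marker that was not called, since the 3 can be compared for short motifs of factors used by Kupffer cells. The sequences are the 250 bases before the RefSeq start site on GRCm38.p6, written 5′ to 3′ on the strand of the gene. They cover chr3:87357631-87357880 (plus strand) for *Cd5l*, chr1:120505025-120505274 (minus strand) for *Marco* and chr6:83656117-83656366 (minus strand) for *Clec4f*. The annotated *Clec4f* gene reaches to 83656187, so a part of its window lies inside the gene. Capitals mark the PU.1 core GAGGAA or its reverse complement.
Cd5l: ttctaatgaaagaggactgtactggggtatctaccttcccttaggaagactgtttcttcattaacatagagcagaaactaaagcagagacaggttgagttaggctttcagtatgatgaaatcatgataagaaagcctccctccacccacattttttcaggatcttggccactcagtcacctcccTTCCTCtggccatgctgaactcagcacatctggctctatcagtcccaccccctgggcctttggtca
Marco: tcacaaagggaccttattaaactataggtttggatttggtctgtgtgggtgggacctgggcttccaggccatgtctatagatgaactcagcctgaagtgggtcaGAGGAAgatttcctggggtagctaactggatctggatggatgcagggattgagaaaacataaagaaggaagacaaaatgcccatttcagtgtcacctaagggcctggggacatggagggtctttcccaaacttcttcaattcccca
Clec4f: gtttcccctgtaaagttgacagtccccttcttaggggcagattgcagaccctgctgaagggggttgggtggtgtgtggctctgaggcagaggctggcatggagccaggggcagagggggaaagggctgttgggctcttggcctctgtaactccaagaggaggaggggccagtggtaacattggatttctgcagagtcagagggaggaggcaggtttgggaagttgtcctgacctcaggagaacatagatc

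Letters of 3 motifs were searched on both strands in the 250 bases before the start site, the PU.1 core GAGGAA, the Maf half-site TGCTGA and the nuclear receptor half-site AGGTCA, and no match overlapped another. RefSeq entries were found for 7 of the 10 markers. The PU.1 core was present in *Cd5l* (from -66 to -61 relative to the start site) and *Marco* (from -146 to -141), and was not in the window of *Clec4f*. It was also in the windows of *Vsig4*, *C1qb* and *C1qc*. Over 32851 mouse promoters of the same length, 23.3% held this core, 16.1% the Maf half-site and 14% the nuclear receptor half-site. *Cd5l* held 2 Maf half-sites close to its PU.1 core, from -54 to -49 and from -46 to -41, and *Clec4f* held 1 Maf half-site and 1 nuclear receptor half-site. *Timd4* held 2 Maf half-sites and 1 nuclear receptor half-site, *C1qb* 1 Maf half-site and *C1qc* 1 nuclear receptor half-site. The window of *C1qc* also lies partly inside its annotated gene, and the bases after the *C1qb* start were not found in its annotated transcripts. These matches describe the letters only, and no binding was measured in these files.

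Within each diet, *Cd5l* and *Marco* were again the markers called, 2 of 10 in each case, against 8.98% of all genes (4.12% called higher) in the fasted state, 6.03% (2.7% higher) with sucrose and 7.69% (3.74% higher) with fructose. For *Cd5l* the log2 fold changes in fasted, sucrose and fructose mice were 0.57, 0.56 and 0.75 (adjusted p = 0.0338, 0.0439 and 0.0119 from limma). For *Marco* they were 0.94, 1.58 and 1.13 (adjusted p = 0.038, 0.00487 and 0.0197 from limma). *Marco* went from 116.4 ± 12.6 to 224.2 ± 32.2 normalized counts in the fasted state, from 69.03 ± 8.58 to 209.2 ± 35.4 with sucrose, and from 135.5 ± 43.8 to 292.0 ± 41.1 with fructose (SD, n = 2 each). *Cd5l* went from 1327 ± 20.2 to 1974 ± 154, from 1109 ± 228 to 1623 ± 19.3, and from 1254 ± 85.4 to 2117 ± 301.

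These calls within single diets were less stable than the average over diets. In the fasted state neither gene was called when any of the 4 fasted mice or either MED13-LKO sucrose mouse was left out, and *Marco* was not called without MED13-LKO fructose mouse 2. With sucrose, *Cd5l* was called in 5 of 12 such fits and *Marco* in 11 of 12, and neither was called without MED13-LKO sucrose mouse 1. Without control sucrose mouse 2, which had the lowest *Cd5l* value, the *Cd5l* difference with sucrose was 0.35 (adjusted p = 0.229 from limma). With fructose, *Marco* was not called without control fructose mouse 1 (0.80, adjusted p = 0.0941 from limma) or without either MED13-LKO fructose mouse, and *Cd5l* was not called without MED13-LKO fructose mouse 2. Without control fructose mouse 2, the fructose differences were 0.68 for *Cd5l* and 1.47 for *Marco*. Those of all 10 markers then ran from -0.15 to 1.47, with a median of 0.06, and 6 were above 0.

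The 8 markers that were not called had log2 fold changes from 0.02 to 0.41 averaged over diets, with a median of 0.10, and the highest upper bound of their 95% confidence intervals was 0.72. When control fructose mouse 2 was left out, all 10 markers ran from -0.02 (*C1qa*) to 1.33 (*Marco*), with a median of 0.12. *Timd4* and *Adgre1* had the largest of these differences. *Timd4* (ENSMUSG00000055546; plus strand of chromosome 11, 46810800 to 46844332), a marker of long-lived resident Kupffer cells, had normalized counts of 100.8 and 89.2, 113.1 and 68.1, and 111.1 and 106.9 in control mice (fasted, sucrose, fructose). In MED13-LKO mice it had 97.1 and 130.0, 129.3 and 132.7, and 140.8 and 150.3. The genotypes overlapped in the fasted state and did not overlap with either sugar. The log2 fold change was 0.41 (SE 0.137, adjusted p = 0.0534 from limma), just above the threshold. How many of all genes separate 2 mice from 2 within a diet was not counted. For this marker and those below, such separation therefore only describes the values.

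*Adgre1* (ENSMUSG00000004730; plus strand of chromosome 17, 57358691 to 57483527) had 296.8 and 333.0, 393.4 and 256.1, and 386.2 and 293.8 normalized counts in control mice. In MED13-LKO mice it had 386.1 and 449.2, 354.7 and 348.7, and 421.4 and 489.2. Within diets the genotypes overlapped in the sucrose groups, where the control mice lay on either side of both MED13-LKO mice. The log2 fold change was 0.33 (SE 0.117, adjusted p = 0.0666 from limma). Without control sucrose mouse 1, *Timd4* (0.53) and *Adgre1* (0.43) were both called (adjusted p = 0.0115 and 0.0143 from limma), with *C1qb* as well. *Timd4* was also called without MED13-LKO fasted mouse 1 (0.48, adjusted p = 0.0453 from limma), and with libraries at equal 75th percentiles (0.43, adjusted p = 0.0472 from limma). Without control sucrose mouse 2, *Timd4* and *Adgre1* were at 0.29 and 0.22 and were not called. *Adgre1* was called without control fructose mouse 1 too (0.39, adjusted p = 0.0395 from limma), and so was *Clec4f*, and without control fructose mouse 2 *Adgre1* was at 0.26.

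*Clec4f* (ENSMUSG00000014542; minus strand of chromosome 6, 83644542 to 83656187) had 1426 and 1520, 1383 and 1232, and 1718 and 1243 normalized counts in control mice. Its values in MED13-LKO mice, 1581 and 1657, 1302 and 1324, and 1606 and 1558, fell within the control range. Within diets, both fasted MED13-LKO mice lay above both fasted control mice, and the genotypes overlapped with each sugar. The log2 fold change was 0.09 (adjusted p = 0.447 from limma). *Vsig4* (ENSMUSG00000044206; minus strand of chromosome X, 96247203 to 96293438) had 496.3 and 444.3, 406.6 and 405.3, and 513.5 and 357.1 in control mice. In MED13-LKO mice it had 483.6 and 557.4, 406.4 and 404.7, and 474.8 and 511.9, with overlap in every diet. Its log2 fold change was 0.12 (adjusted p = 0.392 from limma).

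The 3 C1q genes, which encode the chains of the C1Q molecule and which macrophages supply in the liver, lie side by side on the minus strand of chromosome 4, *C1qb* (ENSMUSG00000036905) from 136880129 to 136886187, *C1qc* (ENSMUSG00000036896) from 136889804 to 136893065 and *C1qa* (ENSMUSG00000036887) from 136895917 to 136898803. *C1qa* ranged from 386.9 to 644.2 normalized counts in control and from 444.8 to 651.3 in MED13-LKO libraries. *C1qb* ranged from 384.7 to 586.4 and from 477.0 to 698.1, and *C1qc* from 418.9 to 637.4 and from 496.9 to 662.6. None of the 3 separated the genotypes over the diets, although both fasted MED13-LKO mice were above both fasted control mice for *C1qb*. Their log2 fold changes were 0.05, 0.21 and 0.08 (adjusted p = 0.789, 0.135 and 0.466 from limma).

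*Csf1r* (ENSMUSG00000024621), the receptor for CSF1 and IL34 on which macrophages depend, was the steadiest of the 10 between genotypes. Its normalized counts were 725.2 and 750.7, 815.2 and 619.3, and 818.3 and 800.2 in control mice and 782.2 and 789.8, 647.8 and 740.7, and 842.6 and 796.8 in MED13-LKO mice. Both fasted MED13-LKO mice lay above both fasted control mice, with overlap in the sugar groups. The log2 fold change was 0.02 (SE 0.0721, adjusted p = 0.842 from limma).

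**Figure D2:**
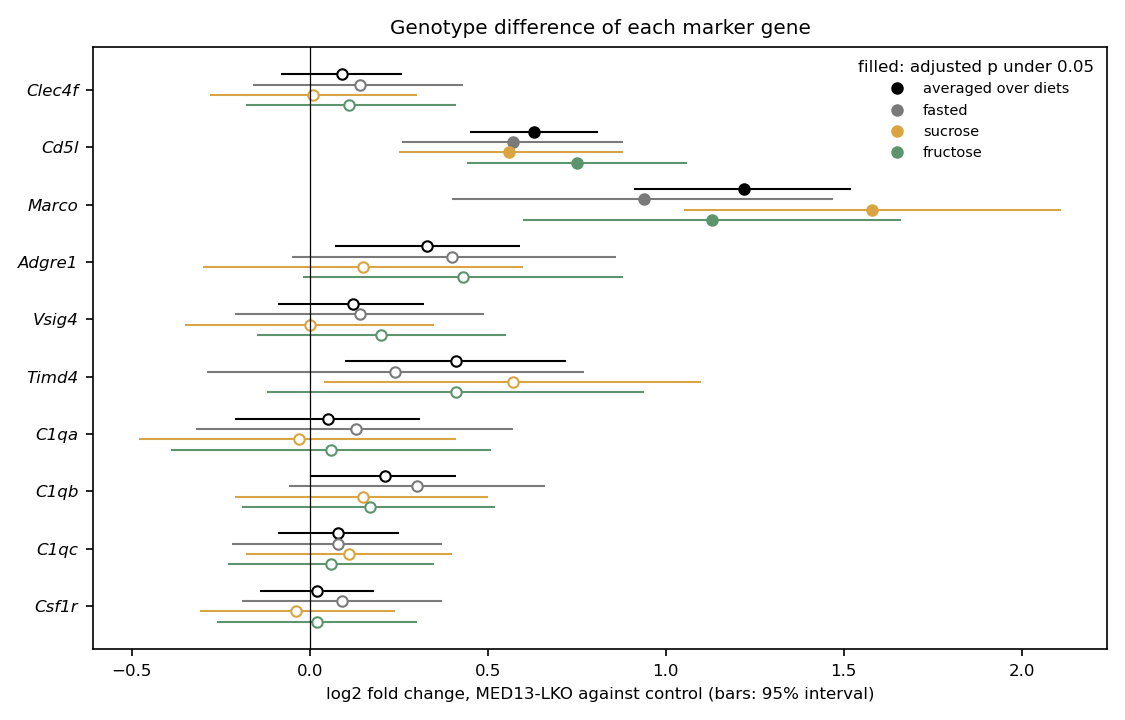
Log2 fold change of each marker gene between MED13-LKO and control livers (horizontal axis), averaged over the diets (black) and within the fasted, sucrose and fructose groups (grey, yellow and green), with 95% confidence intervals as bars and filled points where the adjusted p-value is under 0.05. Only Cd5l and Marco have filled points, at 0.63 and 1.22 over the diets.

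To set the levels against a Kupffer cell marker in the same library, *Cd5l* and *Marco* were divided by *Clec4f*, which removes any factor shared by a library. *Cd5l* was 76.5% to 96% of the *Clec4f* value in the 6 control libraries and 118% to 150% in the 6 MED13-LKO libraries, with no overlap. *Marco* was 5.11% to 13.4% of it in control and 12.7% to 20.6% in MED13-LKO libraries. The overlap in *Marco* came from control fructose mouse 2, at 13.4%, against 12.7% in MED13-LKO fasted mouse 1, and the next highest control library was at 8.24%. *Cd5l* and *Marco* were divided because they were called and *Clec4f* was not, so the ratios describe the same differences and add no test.

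**Figure D3:**
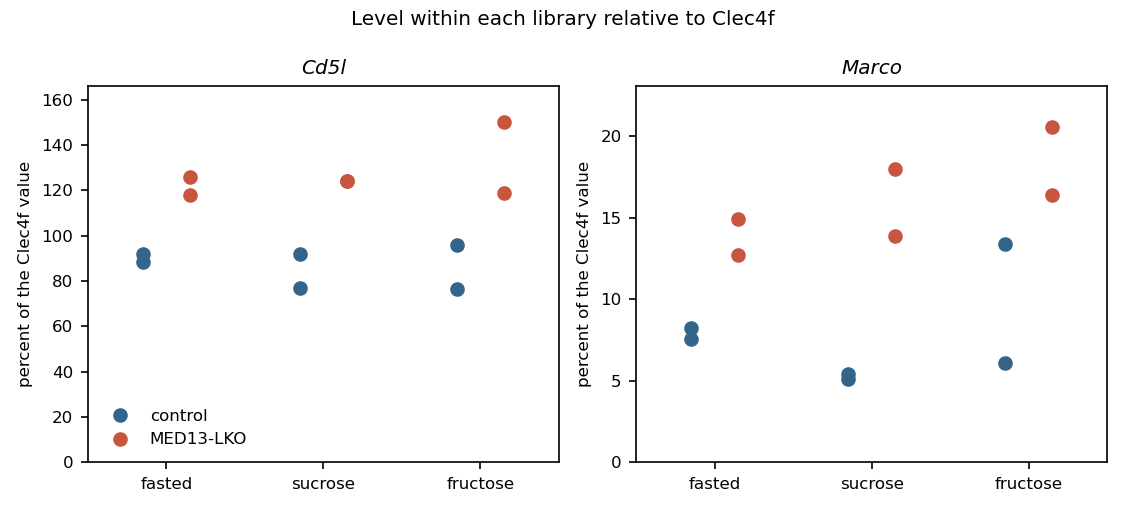
Normalized count of Cd5l (left) and Marco (right) as a percent of the Clec4f value in the same library (vertical axes, starting at 0) by diet, with control mice in blue and MED13-LKO mice in red. Cd5l lies at 76.5% to 96% in control and 118% to 150% in MED13-LKO libraries (both sucrose MED13-LKO points at 124% coincide), and for Marco 1 control library, at 13.4%, reaches the MED13-LKO range.

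Other macrophage genes were counted from lists of known genes. Among 10 other Kupffer cell genes, 3 were called higher in MED13-LKO livers averaged over diets and none lower, with a median log2 fold change of 0.18. Of all genes tested, 12.1% were called higher, and 1634 of 12366 lower. Within single diets none of these 10 genes was called higher, and *Slc40a1* was called lower with fructose (-0.47, adjusted p = 0.022 from limma). The 3 genes called higher averaged over diets were *Siglec1*, *Folr2* and *Fcna*. *Siglec1*, the sialoadhesin CD169, was at 0.66 (adjusted p = 0.0132 from limma). The folate receptor *Folr2* was at 0.51 (adjusted p = 0.0238 from limma) and the ficolin *Fcna* at 0.25 (adjusted p = 0.0423 from limma). *Siglec1* ranged from 74.35 to 146 normalized counts in control and from 143.3 to 230.6 in MED13-LKO libraries. *Cd163*, the receptor for haptoglobin-hemoglobin complexes, stood at 0.11 without a call (limma adjusted p = 0.45).

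Of all genes tested, 12.1% were called higher and 1634 of 12366 lower. Of 18 genes of macrophages in general, 4 were called higher and none lower, at a median of 0.18. They were *Ptprc* (CD45), *Fcgr2b*, *Mrc1* and *Lyz2*, with log2 fold changes from 0.20 to 0.33. *Mrc1* and *Fcgr2b* are also expressed by sinusoidal endothelial cells. Of 11 transcription factors tested, *Id3* was higher (0.57), and *Cebpb* (-0.57), *Rxra* (-0.33) and *Cebpa* (-0.21), which hepatocytes express as well, were lower. The factors *Spi1* (PU.1) and *Nr1h3* (LXRα) stood at 0.13 and 0.12 without a call (limma adjusted p = 0.745 and 0.087).

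Of the 12 genes of CSF1 receptor ligands and niche signals, 1 was called, where 25.3% of all genes tested were. This was *Csf2rb*, the shared beta chain of the GM-CSF, IL3 and IL5 receptors (0.81, adjusted p = 0.00221 from limma). It had 45.81 to 69.25 normalized counts in control and 64.01 to 130.9 in MED13-LKO libraries. The ligands of the CSF1 receptor were not called, *Csf1* at 0.36 and *Il34* at 0.81 (adjusted p = 0.0773 and 0.101 from limma). In contrast to the C1q genes, 7 of the 10 genes of C1 partners and classical complement were lower in MED13-LKO livers, at a median of -0.22. Of all 12366 genes tested, 1634 were called lower. *C1s1*, which encodes a protease of the C1 complex that hepatocytes make, had 9894 to 10923 normalized counts in control and 6390 to 7626 in MED13-LKO libraries (-0.54, adjusted p = 7.48e-05 from limma). The other 6 were *Calr*, *C4b*, *C3*, *Lrp1*, *C1ra* and *Serping1*, with log2 fold changes from -0.42 to -0.14.

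Markers of other cells that whole liver holds moved as well. Of 14 sinusoidal endothelial genes, 8 were higher in MED13-LKO livers averaged over diets, where 12.1% of all genes were, and none lower, at a median of 0.23, among them *Kdr* (0.35), *Stab2* (0.37) and *Stab1* (0.33). Within single diets, 5 were called higher in the fasted state (median 0.39), 0 with sucrose (0.18) and 0 with fructose (0.13), and the difference between diets was not tested for this list as a whole. Their summed level was 7847 to 8917 normalized counts in control and 8915 to 11545 in MED13-LKO libraries. Of all 12366 genes tested, 1634 were called lower. Of 12 hepatocyte genes, 8 were lower and none higher, at a median of -0.39, with *Alb* at -0.45. Of 6 erythrocyte genes, 5 were lower, at a median of -0.65, with the globin genes *Hbb-bs* at -0.62 and *Hba-a1* at -0.80. Of 12 stellate cell and fibroblast genes, 3 were lower (*Dcn*, *Col3a1* and *Des*), and of 4 sex-linked genes *Uty* was higher and *Eif2s3y* lower. The part of these shifts in the differences of *Cd5l* and *Marco* was not tested.

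Lists for monocytes and recruited macrophages, neutrophils, lymphocytes, dendritic cells and cholangiocytes had smaller sums than the 10 Kupffer markers in every library. Of 6 genes tested for monocytes and recruited macrophages, *Plac8* was higher (0.45) and *Trem2* (-0.77, adjusted p = 0.0036 from limma) and *Spp1* (-0.33) were lower, and the 12 genes of this list summed to 1112 to 1287 normalized counts in control and 875.5 to 1225 in MED13-LKO libraries. The monocyte marker *Ccr2* stood at 0.25 without a call (limma adjusted p = 0.371), and *Ly6c2* had 0 to 14.29 normalized counts per library. *Trem2*, a receptor of lipid-associated macrophages, had 67.13 to 138 normalized counts in control and 45.98 to 90.82 in MED13-LKO libraries. The 8 neutrophil genes in the table summed to 9.63 to 33.23 in control and 28.73 to 88.88 in MED13-LKO libraries. Only 1 of them was tested and it was not called. The 14 genes of T, NK and B cells summed to 106.7 to 145.3 and 139.6 to 182.9, the 8 of dendritic cells to 184.2 to 229.7 and 187 to 281.7, and the 7 of cholangiocytes to 99.07 to 198.7 and 99.95 to 177.4. None of the 2, 5 and 4 genes tested on these lists was called. The neutrophil genes *S100a8* and *S100a9* reached 30.21 and 28.08 normalized counts at most, the T cell genes *Cd3e* and *Cd3d* 6.199 and 15.42, and the cholangiocyte gene *Krt19* 38.57. *S100a9* was at 0 in 1 library, and the other 4 of these genes were above 0 in all 12. Of 6 cytokines and chemokines tested, *Cxcl1* was higher (0.98, adjusted p = 0.00516 from limma). Over all genes tested, 25.3% were called in either direction.

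**Figure D4:**
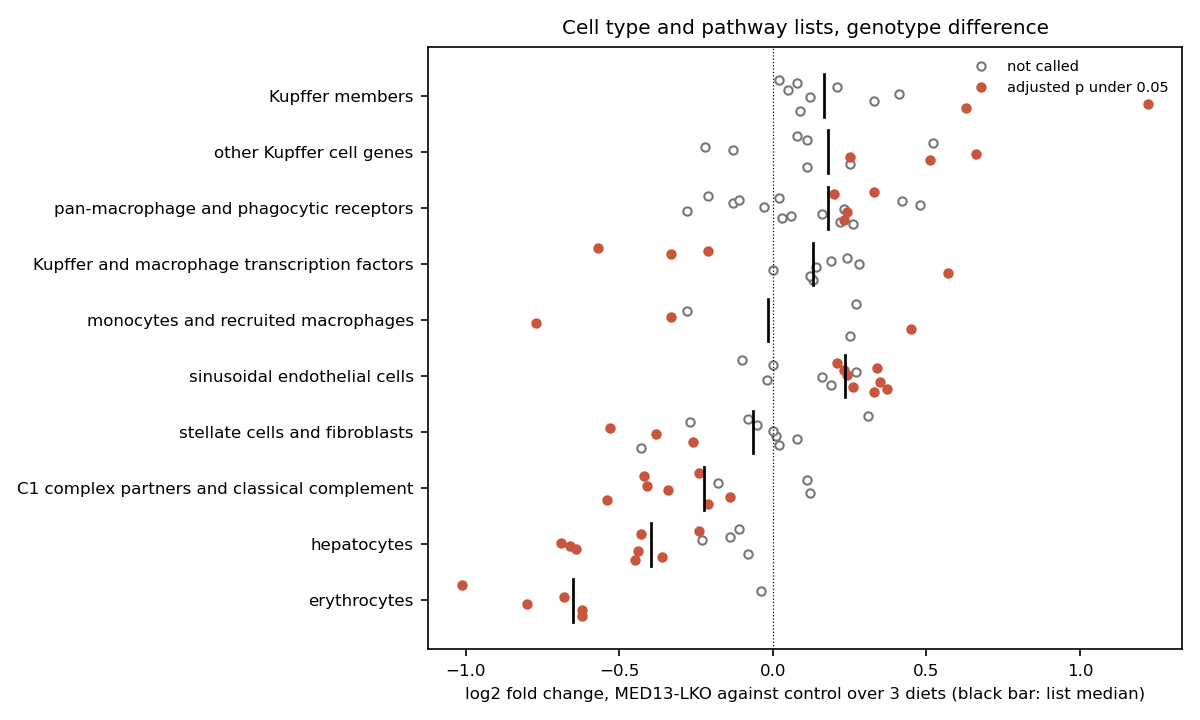
Log2 fold change between MED13-LKO and control livers averaged over diets (horizontal axis) for each gene of 10 lists (rows), with filled points where the adjusted p-value is under 0.05 and black bars at the list medians. The Kupffer markers have a median of 0.16 with Cd5l and Marco furthest to the right, sinusoidal endothelial genes a median of 0.23 and hepatocyte genes a median of -0.39.

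Refeeding left the 10 markers without a called change. Over both sugars and both genotypes, 0 of 10 were called against fasted mice, where 21.8% of all genes tested were, and 1 had an unadjusted p-value under 0.05, against 35.3% of all genes. Their log2 fold changes ran from -0.23 (*C1qb*, adjusted p = 0.128 from limma) to 0.17 (*Timd4*, adjusted p = 0.439 from limma), at a median of -0.13 against -0.01 for all genes. The 95% confidence intervals of the 10 genes lay between -0.44 and 0.49. The differences ran from -0.22 to 0.18 without control fructose mouse 2. Leaving out a mouse changed this count in 2 of 12 fits, to *C1qb* without control sucrose mouse 1 and to *Clec4f* and *Vsig4* without control fructose mouse 1.

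Within each genotype, no marker was called for sucrose or fructose against the fasted state, where 8.57% and 5.6% of all genes were called in control mice and 5.71% and 6.53% in MED13-LKO mice. The widest difference was that of *Marco* between sucrose and fasted control mice, -0.75 (limma adjusted p = 0.0858), and *Marco* was called there when either control fructose mouse was left out. With fructose the differences from the fasted state ran from -0.13 to 0.20 in control and from -0.16 to 0.38 in MED13-LKO mice, and none had an unadjusted p-value under 0.05, which 22.9% and 23.2% of all genes had. Those in control mice ran from -0.15 to 0.30 without control fructose mouse 2. With sucrose, 2 markers in control mice (24.6% of all genes) and 4 in MED13-LKO mice (20.8% of all genes) had one.

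All 10 markers had higher means with fructose than with sucrose, by 0.18 (*Vsig4*) to 0.71 (*Marco*) on the log2 scale averaged over genotypes. None was called, and only 0.0404% of all genes were. The lowest adjusted p-values were 0.277 for *Marco* and 0.368 for *C1qc* (limma), and 6 of 10 had an unadjusted p-value under 0.05, against 9.48% of all genes. Without control fructose mouse 2, the differences ran from 0.22 to 0.54 and none was called, with 0.0931 as the lowest adjusted p-value (limma). The summed level of the 10 genes was 4782 and 6069 normalized counts in control sucrose mice, 5713 and 6797 in control fructose mice, 6118 and 6259 in MED13-LKO sucrose mice and 7283 and 8147 in MED13-LKO fructose mice. The sums overlapped in control and not in MED13-LKO mice, with 2 mice per group, and were not tested. The change with feeding was not detectably different between genotypes, with 0 of 10 markers called for the interaction (0.0404% of all genes), 0 with an unadjusted p-value under 0.05 (9.49% of all genes) and estimates from -0.14 to 0.42. The highest was *Marco* at 0.42 (95% confidence interval -0.23 to 1.07, adjusted p = 0.681 from limma). Without control fructose mouse 2, the estimates ran from -0.22 to 0.59 (*Marco*, adjusted p = 0.413 from limma), and 1 had an unadjusted p-value under 0.05.

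Some genes of the other lists were called with feeding. Of the 10 other Kupffer cell genes, 3 were lower in refed mice and none higher, at a median of -0.22, where 21.8% of all genes were called in either direction. *Cd163* had 416.6 and 434.4 normalized counts in fasted control mice and 222.5 to 271.5 in the 4 refed control mice, and 585.4 and 564 against 199.9 to 285.4 in MED13-LKO mice. Every fasted mouse was above every refed mouse (-0.97, adjusted p = 0.000223 from limma). The share of all genes that separate fasted from refed mice in this way was not counted, so the separation only describes the values. The platelet receptor CLEC2 gene *Clec1b* (-0.54, adjusted p = 0.0148 from limma) and the iron exporter ferroportin gene *Slc40a1* (-0.42, adjusted p = 0.00151 from limma) were lower too.

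Of the transcription factors, *Id3* (1.48), *Cebpa* (0.71) and *Nr1h3* (0.16) rose with feeding and *Cebpb* (-1.38) and *Rxra* (-0.25) fell, and hepatocytes share several of these genes. *Csf1* (0.93, adjusted p = 0.00181 from limma), *Csf2rb* (0.52) and the Notch ligand *Jag1* (0.57) rose, and so did *Il1b* (1.71, adjusted p = 0.00241 from limma) and *Cxcl16* (0.45) among the cytokines. *Il1b* had 10.78 to 16.51 normalized counts in fasted and 25.59 to 83.81 in refed mice. Of the pan-macrophage genes *Mrc1* (-0.39) and *Mertk* (-0.40) fell.

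Of the remaining lists, feeding lowered 2 of 14 sinusoidal endothelial genes (*Clec4g* and *Oit3*), 4 of 12 hepatocyte genes with *Pck1* the furthest (-2.88), 4 of 6 erythrocyte genes and 1 of 4 sex-linked genes (*Uty*). It raised *Calr* on the complement list, and on the stellate cell list *Col1a1* and *Col1a2* rose and *Reln* fell. No gene of the monocyte, neutrophil, lymphocyte, dendritic cell or cholangiocyte lists was called with feeding. Over all genes tested, 21.8% were called with feeding in either direction.

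**Figure D5:**
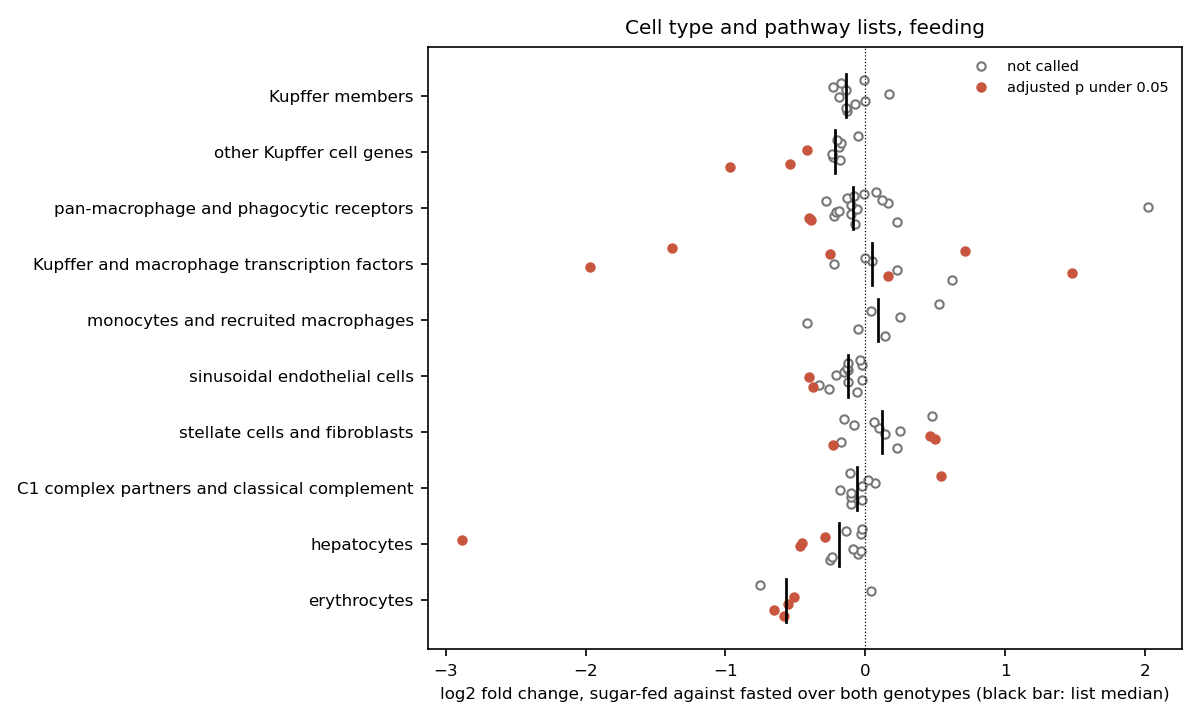
Log2 fold change between sugar-fed and fasted livers averaged over genotypes (horizontal axis) for each gene of 10 lists (rows), with filled points where the adjusted p-value is under 0.05 and black bars at the list medians. The 10 Kupffer markers lie between -0.23 and 0.17 without a filled point, while Cd163 lies at -0.97 among the other Kupffer cell genes.

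The markers varied together between mice. Over the 12 libraries, which share tissue and normalization, Pearson's r between pairs of the 10 genes ran from 0.29 to 0.91 with a median of 0.66, and 35 of 45 pairs were above 0.5. These values include the differences between groups. Pairs of other genes were not counted, so whether this is particular to the markers was not tested. The mean log2 level of the 10 genes was lowest in control sucrose mouse 2, at -0.52 from the mean of all libraries, and highest in MED13-LKO fructose mouse 2, at 0.37 from it. Without control fructose mouse 2, the pairs ran from 0.30 to 0.95 with a median of 0.72. After the group means were removed, the correlation of each gene with the mean of the other 9 was 0.44 to 0.98 for 9 genes, with *Adgre1* at 0.98, *C1qa* at 0.97 and *Cd5l* at 0.93, and -0.02 for *Marco*. The value of *Marco* rested on the control fructose pair. In the 10 libraries without that pair, a choice made after seeing the data, it was 0.62, against 0.96 for *Cd5l* and 0.24 to 0.98 for the 9 genes other than *Marco*.

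Among the genes outside the 10 whose pattern over the 12 libraries was most like the mean of the markers were *Il1rn* (r = 0.93), *Lgmn* (0.92), *Cybb* (0.91), *N4bp1*, *Ifi27l2a* and *Il4ra* (0.89 each), *Xcr1* (0.88), and *Folr2* and *Hpx* (0.86 each). *Il1rn*, the antagonist of the IL1 receptor, *Lgmn*, a lysosomal protease, *Il4ra*, the IL4 receptor alpha chain, and *Folr2* were also called between genotypes, with log2 fold changes of 0.96, 0.22, 0.32 and 0.51 (adjusted p = 0.0297, 0.0234, 0.0476 and 0.0238 from limma). *Cybb*, a subunit of the phagocyte NADPH oxidase, was not. All these genes were chosen by likeness to the marker mean, which itself tended to be higher in MED13-LKO libraries. That choice favours genes higher in MED13-LKO livers, so the calls add no separate evidence. Of all genes tested, 12.1% were called higher. *Hpx*, which encodes hemopexin, is a hepatocyte gene with a mean of 66234 normalized counts, so likeness over 12 libraries did not separate genes by cell type.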

How the data were processed

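Total RNA from 12 livers was sequenced as paired reads. Per the labels and the methods of the study, the authors trimmed reads with Trim Galore 0.6.5, estimated transcript counts with kallisto 0.46.0 and normalized with DESeq2 1.24.0, and the submitters' notes name mm10. The deposited signal values are normalized counts for 16346 genes, and 16212 identifiers were matched to symbols of GENCODE M21. Low values were whole multiples of a step per library for 76.2% to 97.7% of values in 2652 genes with 1 transcript (tolerance 0.03), but for 45% to 56.1% over all genes, so reads were not recovered and no count test was run. That step gave the estimated reads.

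Log2(normalized count + 1) was fitted, for the 12366 genes whose mean reached 10, with 6 group means in limma 3.58.1 (R 4.3.3, trended moderation), with Benjamini-Hochberg adjustment over all genes tested. The 10 genes and the other lists were chosen with earlier results of these data known. Named beside them are list genes called between genotypes or with feeding (at most 5 by adjusted p per list and comparison), first markers of other cells, and the 10 genes most correlated with the markers. *Spi1*, *Nr1h3*, *Il34*, *Lrp1* and *Serping1* were also named, chosen after their values were seen. Some genes that these rules name are not reported here. Figures used matplotlib 3.10.9. Alternatives were pseudocounts of 0.1 and 10, no filter, equal 75th percentiles or totals, a replicate block, fits without the other groups, and fits without each mouse in turn.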

Additional observations from a re-analysis of the deposited data

How the results depend on the processing

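Averaged over diets, *Cd5l* and *Marco* were called in all 12 fits without a mouse and in all 6 other alternatives. With equal totals, 10 markers were called averaged over diets, 8 in the fasted state and 6 with fructose. Without a mouse, the number of markers called ran from 2 to 5 averaged over diets, from 0 to 2 within the fasted, sucrose and fructose groups and for feeding, and from 0 to 1 for sucrose against fasted in control mice. With only the compared groups, 1 marker (*Marco*) was called with sucrose and 0 with fructose (adjusted p = 0.0777 for *Cd5l* and 0.136 for *Marco* from limma). The cause of these changes was not tested.

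No source says that equal replicate numbers mark shared handling, and deviations of same-numbered mice did not correlate (r of -0.02 fasted, -0.03 with sucrose and -0.14 with fructose). With the replicate block, 1 marker (*Marco*) was called between fasted genotypes and 1 between sucrose genotypes, and the count was unchanged for the other comparisons. In a block fit of only the fructose libraries, chosen after seeing the data, 0 markers were called, and 1 (*Cd5l*) with the numbers of 1 group crossed.

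Small differences changed sign or lay at 0.00 as rounded. With sucrose, equal 75th percentiles gave 0.03 for *Vsig4* and 0.00 for *C1qa*, and equal totals gave 0.28, 0.25 and, for *Csf1r*, 0.25. For feeding, equal 75th percentiles gave 0.03 for *Adgre1* and 0.02 for *Csf1r*, and equal totals gave 0.11, 0.10 and, for *Marco*, 0.03. Without a mouse, the genotype difference averaged over diets ran from -0.04 to 0.14 for *C1qa* and from -0.04 to 0.09 for *Csf1r*. In the fasted state it ran from 0.00 to 0.26 for *C1qa* and from -0.02 to 0.17 for *C1qc*. With sucrose it ran from -0.07 to 0.09 for *Clec4f*, from -0.16 to 0.46 for *Adgre1*, from 0.00 to 0.00 for *Vsig4*, from -0.31 to 0.24 for *C1qa*, from -0.08 to 0.37 for *C1qb*, from -0.04 to 0.27 for *C1qc* and from -0.23 to 0.16 for *Csf1r*. With fructose it ran from -0.12 to 0.35 for *Clec4f*, from -0.06 to 0.46 for *Vsig4*, from -0.15 to 0.27 for *C1qa*, from -0.04 to 0.16 for *C1qc* and from -0.02 to 0.06 for *Csf1r*. The feeding difference ran from -0.15 to 0.01 for *Marco*, from -0.08 to 0.08 for *Adgre1* and from -0.06 to 0.04 for *Csf1r*.

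The 95% intervals of the uncalled markers reached 0.72 on the log2 scale averaged over diets, and 1.10 (*Timd4* with sucrose) in a comparison of 2 mice with 2. The deposited values carry no counts, so depth could not be weighed gene by gene.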
